A study of Mus musculus with 6 samples.

Results

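The Ly6 genes are a family of small surface proteins, and 8 of them were examined here: Ly6d, Ly6a, Ly6e, Ly6k, Ly6c1, Ly6c2, Ly6i and Ly6g. They were taken by symbol from the 55394 genes listed for each library, and all 8 identifiers carry the same symbol in the mouse annotation GENCODE M21. The set was chosen by the level of Ly6d, already known to be higher after antibiotic exposure in these same libraries, and the question was whether the genes beside it on chromosome 15 shared that rise. The difference of Ly6d between the groups is therefore given as a description, with no test.

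The study profiled group 2 innate lymphoid cells (ILC2s) of the neonatal lung by SMART-seq, an RNA-seq method for low cell input. All mice were wild type C57BL/6. In the Abx group, pregnant dams drank ampicillin, metronidazole, neomycin and vancomycin from gestation day 10 to day 14, and the Control group came from dams without antibiotics. Each group had 3 libraries, each made from 1000 sorted cells of the pups. The age of these pups and the number of animals behind a library are not stated, nor is it said that libraries of a group came from separate animals, so the p-values below measure the spread between libraries, which may be technical. The cells were sorted as CD45+CD90.2+CD25+ cells that lack lineage antigens. The lineage antibodies include B220 against B cells, CD3e, CD4, CD5, CD8a and TCR-β against T cells, and Gr1, which binds the Ly6G and Ly6C proteins, so cells that display them were sorted away, and a low level of Ly6g, Ly6c1 or Ly6c2 is no finding about these cells. The labelled cell type was checked against 15 ILC2 markers, of which 14 were measurable. The exception was Il1rl1, the receptor for IL-33, which reached 1 FPKM in a single library (2.94 in Control 3).

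Levels are given in FPKM, fragments scaled to exon length and to the mapped reads of the library, so that levels of different genes can be set side by side. Total FPKM was 420941 to 489262 per library, and the number of reads behind it is unknown, so no counting error can be given. Between 8574 and 9203 genes reached 1 FPKM in the Control libraries and between 7074 and 8193 in the Abx libraries. Xist, the RNA that coats the silenced X chromosome of females, was at 3.78 to 5.09 FPKM in Control and listed at 0 in all 3 Abx libraries. The Y-linked Eif2s3y was at 0.03 to 0.86 FPKM in Control and at 11.9 to 24.4 FPKM in Abx, so pup sex and antibiotic exposure cannot be told apart in any difference below.

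Ly6 proteins are short chains folded by disulphide bonds into a single compact domain and tethered to the outer face of the membrane by a glycosylphosphatidylinositol (GPI) anchor. Immunologists know them mostly as labels: Sca-1, the product of Ly6a, marks blood stem cells and lymphoid progenitors, Ly6C marks monocytes, Ly6G marks neutrophils and Ly6D marks lymphoid progenitors committed to the B cell lineage. In the mouse most of these genes lie in one cluster on chromosome 15, and several of them arose by recent duplication, so that parts of their transcripts are nearly the same.

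The starts of the coding sequences show which members are near copies. The first 60 coding bases of each member are printed here from the start codon, 5′ to 3′, as read from the GENCODE M21 transcripts on GRCm38. Capitals mark a base equal to that of Ly6a at the same position, and Ly6a itself is therefore in capitals throughout.
Ly6a: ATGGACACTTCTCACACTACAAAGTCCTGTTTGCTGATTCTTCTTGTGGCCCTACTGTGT
Ly6c1: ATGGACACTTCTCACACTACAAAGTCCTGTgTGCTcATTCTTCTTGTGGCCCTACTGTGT
Ly6c2: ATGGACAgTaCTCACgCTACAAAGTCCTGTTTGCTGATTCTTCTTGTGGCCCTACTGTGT
Ly6i: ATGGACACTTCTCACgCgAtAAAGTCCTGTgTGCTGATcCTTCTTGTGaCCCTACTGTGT
Ly6g: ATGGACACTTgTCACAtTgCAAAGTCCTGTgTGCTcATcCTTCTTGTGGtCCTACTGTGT
Ly6e: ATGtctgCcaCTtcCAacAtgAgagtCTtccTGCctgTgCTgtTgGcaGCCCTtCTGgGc
Ly6d: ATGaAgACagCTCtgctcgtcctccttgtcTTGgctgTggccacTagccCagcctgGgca
Ly6k: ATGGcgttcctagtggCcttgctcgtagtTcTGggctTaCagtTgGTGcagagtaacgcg

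Ly6c1 shared 58 of the 60 bases with Ly6a, Ly6c2 shared 57, Ly6i shared 54 and Ly6g shared 53. Ly6e shared 29, Ly6d 16 and Ly6k 14. The printed bases of Ly6a lie at chr15:74997545-74997604 on the minus strand in exon 1, those of Ly6e at chr15:74957808-74957867 on the plus strand in exon 2, and those of Ly6d run from chr15:74763560 down across exons 1 and 2, with 52 bases in exon 1. Over whole transcripts, none of the 50-base stretches of Ly6d or Ly6e occurred in another gene, against 19.0% of those of Ly6a and 32.8% of those of Ly6c1. At 100 bases the shares were 1.45% for Ly6a and 10.1% for Ly6c1, and for Ly6c1 the gene that shared most was Ly6c2. For Ly6k, 32.7% of the 50-base stretches also occurred in Gm17189, an antisense gene that covers it on the other strand, and the library kit does not mark strand. How reads that fit several genes were divided is not given in the sources used here, so levels of Ly6a, Ly6c1, Ly6c2, Ly6i and Ly6k carry that uncertainty, while no shared stretch was found for Ly6d and Ly6e.

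Ly6d, at chr15:74762056-74763620 on the minus strand (ENSMUSG00000034634), was present in every library. It stood at 45.2 FPKM in Control 1, 80.9 in Control 2 and 84.5 in Control 3, and at 689.8 in Abx 1, 772 in Abx 2 and 504 in Abx 3. The groups did not overlap, and the lowest Abx library was far above the highest Control library. The means were 70.2 ± 21.7 FPKM in Control and 655 ± 137 in Abx (SD, n = 3 each), 9.33-fold apart. On the log2(FPKM + 1) scale the difference was 3.23 with a standard error of 0.31. By rank of abundance among all genes, Ly6d stood at 1393, 801 and 739 in Control and at 90, 84 and 109 in Abx. These values chose the set and are a description. In RNA from sorted pools of cells, a change in the number of cells that express a gene and a change in its RNA per cell cannot be told apart.

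The other 7 members were read from a limma fit over all genes that reached 1 FPKM in at least 3 of the 6 libraries, and 4 of them, Ly6e, Ly6a, Ly6k and Ly6c1, passed that filter. A gene was called at a fold over 2 with an adjusted p under 0.05. Of these 4 members 0 were called, where 0.0574% of the 8718 genes tested were. At an unadjusted limma p under 0.05 and any fold 2 of the 4 passed, against 11.0% of all genes. They were Ly6e upward, as were 4.74% of all genes, and Ly6a downward, as were 6.25%. With a fold over 2 as well, Ly6a alone passed, where 9.34% of all genes did. The values of Ly6e and Ly6a did not overlap between the groups, and nor did those of 17.2% of all genes tested, 8.49% higher and 8.73% lower in Abx. The 4 members had a median log2 difference of -0.16, where the median of all genes tested was -0.06. A call was so rare among all genes that 0 calls in 4 members cannot show whether the rise of Ly6d was shared. The 2 that passed the looser threshold went in opposite directions.

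Ly6e, also called Sca-2 or thymic shared antigen 1, is found on thymocytes and many other cells and is inducible by interferon. It lies 193 kb from Ly6d by gene start, at chr15:74955051-74959905 on the plus strand. Its level was 251 FPKM in Control 1, 414 in Control 2 and 364 in Control 3, and 586 in Abx 1, 509 in Abx 2 and 589 in Abx 3. Every Abx library was above every Control library, and the Control libraries were the more spread. The means were 343 ± 83.3 and 561 ± 45.7 FPKM (SD, n = 3 each), a fold of 1.64. The log2 difference of 0.74 (SE 0.23) had a limma p of 0.0135 and an adjusted p of 0.238, so Ly6e did not pass in the test over all genes. It was the highest of the 8 members in Control 2 and Control 3, and in Abx 3.

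Ly6a encodes Sca-1, which is also inducible by interferon, and lies 233 kb from Ly6d, beyond Ly6e and Ly6i (chr15:74994877-74998031, minus strand). Its level was 365 FPKM in Control 1, 236 in Control 2 and 234 in Control 3, and 51.9 in Abx 1, 165 in Abx 2 and 47.0 in Abx 3. The groups again did not overlap, but here the Abx libraries were the lower ones, and Abx 2 lay nearer to the Control libraries than the other 2 did. The means were 278 ± 75.3 FPKM in Control and 88.0 ± 66.9 in Abx (SD, n = 3 each), 3.16-fold lower in Abx. The log2 difference was -1.87 (SE 0.49), with a limma p of 0.00544 and an adjusted p of 0.157, which does not pass. Without Abx 2 it was -2.44, with an adjusted p of 0.0839. Abx 1 and Abx 3, in which Ly6a was lowest, were also the libraries with the fewest genes at 1 FPKM, 7074 and 7572, against 8193 in Abx 2, and the part of this in the level of Ly6a was not tested. The FPKM of Ly6a and of similar cluster genes (Ly6c1, Ly6c2, Ly6i, Ly6g, Ly6f, Ly6g2 and the pseudogenes Ly6a2 and Gm8000) were also summed. The sum differed by -1.71 (SE 0.47, limma adjusted p 0.177). Ly6a made up most of it, with Ly6c1 next at a mean of 10.3 FPKM in Control and 6.86 in Abx. The sum could therefore hardly change direction, and it does not settle how reads of near copies were divided. This sum was chosen after seeing the data.

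Ly6k, which is best known from the testis, where it is needed for sperm function, is the member nearest to Ly6d, 34.8 kb away (chr15:74796874-74799986, minus strand). It was listed at 0 in Control 1 and Control 3 and at 5.74 FPKM in Control 2, and stood at 60.1 in Abx 1, 36.5 in Abx 2 and 0 in Abx 3. The groups overlapped, because 1 library of the Abx group was at 0 like those of Control. The log2 difference was 2.80 (SE 1.64, limma adjusted p 0.615), and without Abx 3 it was 4.66 (limma adjusted p 0.172). Without Abx 1 it was 1.70 (limma adjusted p 0.753) and without Abx 2 it was 2.05 (limma adjusted p 0.676). The number of reads is unknown, so a level of 0 cannot be told from a missed transcript. Gm17189, the antisense gene that covers Ly6k, was at 2.95 FPKM in Abx 2 and listed at 0 in the other 5 libraries, so the signal was assigned to Ly6k and hardly to its partner.

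**Figure D1:**
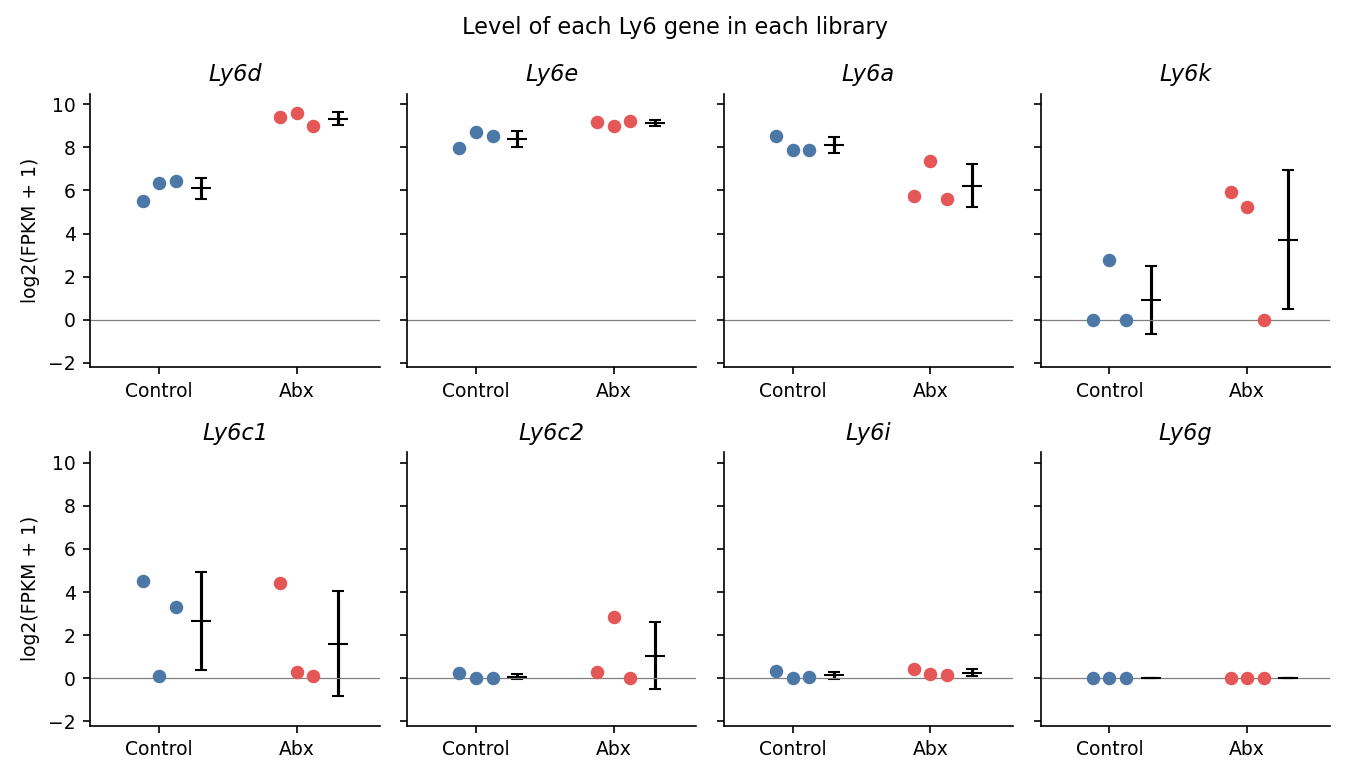
Level of each of the 8 Ly6 genes on the log2(FPKM + 1) scale (vertical axis) in the 3 Control libraries (blue) and the 3 Abx libraries (red), each point a library in the order 1 to 3, with the mean and SD on that scale in black. Ly6d and Ly6e were higher in every Abx library, Ly6a was lower in every Abx library, and the values of the other 5 genes overlapped between the groups.

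The Ly6C genes were low or irregular. Ly6c1 (chr15:75044018-75048830, minus strand) stood at 21.9 FPKM in Control 1, 0.08 in Control 2 and 9.01 in Control 3, and at 20.3 in Abx 1, 0.24 in Abx 2 and 0.06 in Abx 3. It was near 0 in Control 2, Abx 2 and Abx 3 and well above 0 in the rest, so the groups overlapped. Its log2 difference of -1.05 had a standard error of 1.54 (limma adjusted p 0.856). Ly6c2 (chr15:75108158-75111970, minus strand) was at 0.17 FPKM in Control 1, 0.22 in Abx 1 and 6.16 in Abx 2 and listed at 0 in the other 3 libraries. It did not pass the filter, and the exact two-sided permutation test on its mean log2(FPKM + 1) gave a p of 0.4, and 3 libraries against 3 cannot give a p below 0.1. The library in which Ly6c1 was high and the library in which Ly6c2 was high in the Abx group were not the same, Abx 1 and Abx 2.

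Ly6i and Ly6g were at the floor. Ly6i (chr15:74979534-74983430, minus strand), a near copy of Ly6a, reached at most 0.35 FPKM in Abx 1 and 0.25 in Control 1, with an exact permutation p of 0.4. Ly6g (chr15:75155240-75159126, plus strand), the neutrophil marker, was listed at 0 in all 6 libraries. Neutrophil transcripts were scarce and irregular as well, with a summed level of 10 neutrophil markers of 2.91 to 20.6 FPKM in Control and 0 to 75.3 in Abx, most of the latter from S100a8 at 75.0 FPKM in Abx 1, and Mpo, Elane, Ngp and Camp at 0 throughout. A single marker of these 10, higher in Abx, was tested, and it passed in limma at a fold over 2 neither with nor without adjustment. For monocytes, whose marker is Ly6C, the summed level of 10 markers was 203 to 471 FPKM in Control and 267 to 474 in Abx, led by Lyz2 at 161, 363 and 101 FPKM in Control and 259, 368 and 170.5 in Abx. Of these 5 were tested, 2 higher and 3 lower in Abx. At a fold over 2, 0 passed in limma with or without adjustment, where 9.34% of all genes passed without it.

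The members were also set against each other within each library. The 8 members together came to 684, 736 and 692 FPKM in Control 1, 2 and 3 and to 1409, 1489 and 1140.1 in Abx 1, 2 and 3. Ly6d made up 6.60%, 11.0% and 12.2% of this sum in Control and 49.0%, 51.8% and 44.2% in Abx. The share of Ly6a went the other way, from 53.4%, 32.0% and 33.8% in Control to 3.68%, 11.1% and 4.12% in Abx. Ly6e held 36.8% to 56.2% in Control and 34.2% to 51.7% in Abx, so its share overlapped between the groups although its level did not. These sums and shares contain Ly6d and are descriptions.

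Ratios within a library do not depend on how libraries were scaled. Ly6e over Ly6a, which leaves Ly6d out, was 0.688, 1.76 and 1.55 in Control and 11.3, 3.08 and 12.6 in Abx, with no overlap of the groups. Ly6d over Ly6a was 0.124 to 0.361 in Control and 4.67 to 13.3 in Abx. Ly6d over Ly6e was 0.180 to 0.232 in Control and 0.855 to 1.52 in Abx, so every Abx library held more Ly6d relative to Ly6e than any Control library. In the Control group the order from high to low was Ly6e and Ly6a, whose values overlapped, then Ly6d, below both in every library. In the Abx group the order was Ly6d and Ly6e, whose values overlapped, then Ly6a.

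**Figure D2:**
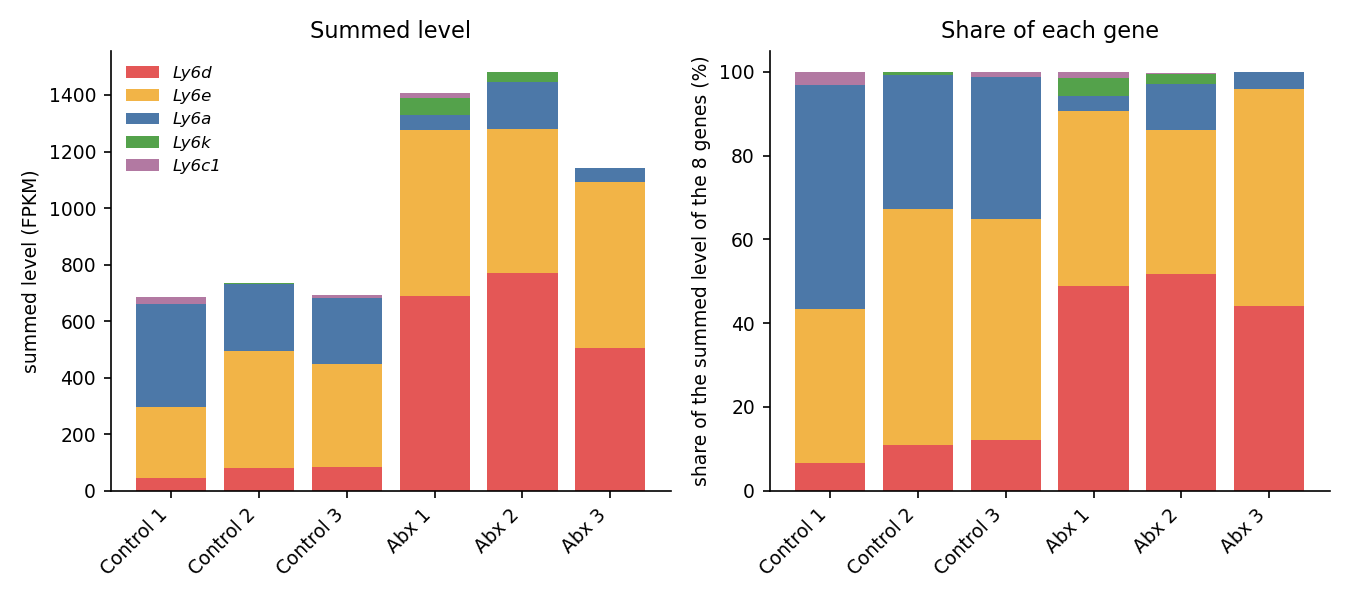
Stacked bars of the level in FPKM (left) and of the share in percent of the summed level of the 8 genes (right) for the 5 members that passed the filter, in each of the 6 libraries. The share of Ly6d was 6.60% to 12.2% in Control and 44.2% to 51.8% in Abx, and that of Ly6a was 32.0% to 53.4% in Control and 3.68% to 11.1% in Abx.

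Across the 6 libraries, Pearson's r of log2(FPKM + 1) was 0.90 between Ly6d and Ly6e, -0.81 between Ly6d and Ly6a and -0.89 between Ly6e and Ly6a. Between Ly6d and Ly6k it was 0.65. These r are a description of 6 libraries that fall into 2 groups. Of all genes tested, those most like Ly6d by r over the 6 libraries were Ranbp1 (0.99), a regulator of nuclear transport, the T cell receptor beta segments Trbj1-2 and Trbv12-2 (0.98 each), Sarnp (0.98) and the pseudogene Gm6722 (0.98). Trbv12-2 stood at 8.38, 11.8 and 11.7 FPKM in Control and at 61.9, 47.3 and 57.0 in Abx, a log2 difference of 2.28 (SE 0.37). It was picked by its r with Ly6d, so this difference is a description, with no test. Those most like Ly6a were Leng1, Dnase2a, Cdca7l, Hgsnat and Cpsf6 (0.990 to 0.997), all of which were near 0 in Abx 1 and Abx 3 and higher in Abx 2. Cpsf6, a factor of mRNA 3′ end processing, was at 146, 107 and 102 FPKM in Control and at 0.73, 34.5 and 0.13 in Abx.

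To see whether the rise was shared along the chromosome, all genes with a start within 1 Mb of that of Ly6d were taken. There were 69 besides Ly6d, of which 43 were listed at 0 in every library and 12 stayed under 1 FPKM. The 8 that passed the filter include the members Ly6k, Ly6e, Ly6a and Ly6c1, so this is no separate look at those 4. Of the 8, 4 were higher and 4 lower in Abx. Limma called 0, where 0.0574% of all genes were called. At an unadjusted p under 0.05 and a fold over 2, 2 (Ly6a and Arc) passed, as did 9.34% of all genes. The median log2 difference of the 8 was -0.16. The values of 3 of the 8 did not overlap between the groups, where those of 17.2% of all genes did not: Ly6e was higher in Abx, and Ly6a and Arc were lower.

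Arc, an immediate-early gene best known from neurons, is the nearest tested gene on the other side of Ly6d, 93.0 kb away at chr15:74669083-74672570. It was at 14.0, 19.2 and 17.1 FPKM in Control 1, 2 and 3 and at 0.83, 0.06 and 0 in Abx 1, 2 and 3, the opposite of Ly6d. Its log2 difference was -3.82 (SE 0.68, limma adjusted p 0.0911). Within 200 kb of Ly6d there were 24 genes, and 3 of them passed the filter: Arc, Ly6k and Ly6e. The genes directly beside Ly6d, Lynx1 at 14.2 kb and Ly6g6g at 8.85 kb, reached at most 0.10 FPKM and 0 FPKM. Farther out, the pseudogenes Gm15387 and Ndufb4c differed by 0.54 (SE 0.32, limma adjusted p 0.624) and 0.19 (SE 0.56, limma adjusted p 0.930), and Zc3h3 by -0.51 (SE 0.56, limma adjusted p 0.802).

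**Figure D3:**
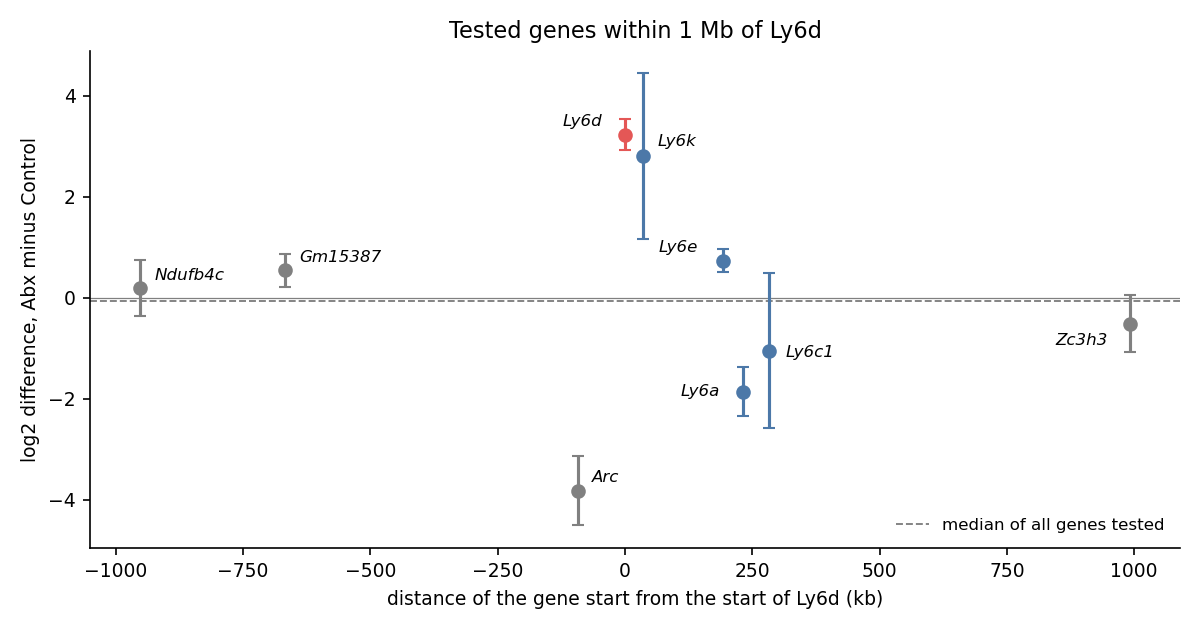
Difference between the groups on the log2(FPKM + 1) scale, Abx minus Control, with its standard error (vertical axis) for Ly6d (red), the other Ly6 members (blue) and other tested genes (grey), against the distance in kb of each gene start from that of Ly6d (horizontal axis). The dashed line is the median of all genes tested, -0.06, and the neighbours of Ly6d lie on both sides of it, from -3.82 for Arc to 2.80 for Ly6k.

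Most other genes of the family were listed at 0. Of 13 further Ly6 and related genes of the chromosome 15 cluster, among them Ly6f, Ly6h, Ly6m, Psca, Slurp1 and Gpihbp1, 9 were listed at 0 in all libraries and none reached 1 FPKM (highest value 0.14 FPKM, Gpihbp1 in Abx 3). Of 19 family genes on other chromosomes, 14 were listed at 0 throughout and 2 passed the filter. Limma called 0 of these, where 0.0574% of all genes were called. At an unadjusted p under 0.05 and a fold over 2, 1 (Plaur) passed, as did 9.34% of all genes. Plaur, the receptor for urokinase and a relative with several such domains, was at 105, 124 and 60.7 FPKM in Control and at 17.3, 9.12 and 23.8 in Abx. All Abx libraries were lower, as for 8.73% of all genes tested, by a log2 difference of -2.50 (SE 0.46, limma adjusted p 0.0911). Ly6g5b, a secreted relative on chromosome 17, was at 52.1, 85.3 and 62.5 FPKM in Control and at 67.0, 113 and 97.7 in Abx, with overlapping groups (log2 difference 0.46, SE 0.32, limma adjusted p 0.674). The complement inhibitor Cd59a reached 13.8 FPKM in Control 1 and 5.18 in Abx 2 and was under 1 FPKM elsewhere, and its paralog Cd59b reached 5.26 in Control 2 alone.

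All membrane-bound members need a GPI anchor, so the genes that build it were read as a group. Of 29 such genes 22 were tested, 8 higher and 14 lower in Abx. Limma called 0 of them, and 2 that were higher and 3 that were lower passed at the unadjusted p with a fold over 2, where 9.34% of all genes did. Their median log2 difference was -0.62, where that of all genes was -0.06, and their summed level was 287 to 339 FPKM in Control and 213 to 454 in Abx. Dpm3, a subunit of the enzyme that makes the mannose donor, was at 74.9, 29.6 and 36.1 FPKM in Control and 73.2, 120 and 79.1 in Abx. Pigs, a subunit of the transamidase that attaches the anchor, was at 112, 44.1 and 64.2 FPKM in Control and 25.1, 38.7 and 0.15 in Abx (log2 difference -2.71, SE 1.25, limma adjusted p 0.483). Pigyl and Pigx, with 37.4 to 42.4 and 15.1 to 21.0 FPKM in Control, reached 30.7 to 122 and 8.60 to 28.4 in Abx. The genes that passed were Dpm3 and Pigl, higher, and Pigb, Pigk and Pigu, lower. Pigl was at 1.12, 5.46 and 7.92 FPKM in Control and 12.1, 15.8 and 21.6 in Abx. Pigu was at 4.97, 7.55 and 5.09 FPKM in Control and 0.02, 0.02 and 0.01 in Abx. Without overlap between the groups, 4 of the tested genes were lower and 1 was higher, against 8.73% and 8.49% of all genes.

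Other lymphocyte proteins with the same anchor gave a different picture from Ly6d. Of 16 genes 9 were tested, 6 higher and 3 lower, with a median log2 difference of 0.12. At a fold over 2, 0 passed in limma with or without adjustment, where 9.34% of all genes passed without it. Cd52, the most abundant at 1468, 1279 and 1291 FPKM in Control and 1207, 1997 and 1053 in Abx, differed by 0.02 (SE 0.25, limma adjusted p 0.986). Cd48 differed by 0.85 (SE 0.36, limma adjusted p 0.442), Bst2 by 0.76 (SE 0.41, limma adjusted p 0.568) and Cd24a by -0.80 (SE 0.52, limma adjusted p 0.657). Thy1, the CD90 antigen by which the cells were sorted, was at 8.82 to 12.6 FPKM in Control and at 9.36 to 15.4 in Abx.

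Ly6e and Ly6a both respond to interferon in many cell types, and 28 interferon-stimulated genes outside the family were read beside them. Of the 11 tested, 6 were higher and 5 lower in Abx, with a median log2 difference of 0.11. Limma called 0, and 1 that was higher (Parp14) passed at the unadjusted p with a fold over 2, where 9.34% of all genes did. Their summed level was 196 to 260 FPKM in Control and 186 to 288 in Abx, so the groups overlapped. Ifi27 was at 81.8, 38.7 and 70.4 FPKM in Control and at 97.8, 124 and 106 in Abx (log2 difference 0.83, SE 0.33, limma adjusted p 0.405). It was higher in every Abx library, as were 8.49% of all genes tested. Ifi35 was at 89.7, 85.4 and 44.7 FPKM in Control and at 41.2, 77.0 and 15.3 in Abx (log2 difference -0.91, SE 0.59, limma adjusted p 0.654). Gbp2 and Igtp differed by -1.05 (SE 1.19, limma adjusted p 0.813) and 0.11 (SE 1.57, limma adjusted p 0.987). Like Ly6e and Ly6a, the members of this list lay on both sides of 0.

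Markers of other lymphocytes moved in the direction of Ly6d and are given for that reason. The summed level of 15 T cell and thymocyte markers was 1235 to 1420 FPKM in Control and 2711 to 3086 in Abx. Most of it came from Trbc2 and Trbc1, at means of 910 and 288 FPKM in Control and 1725 and 709 in Abx. Of 10 tested, 9 stood higher and 1 lower in the Abx group, limma called 0, 5 that were higher passed at the unadjusted p with a fold over 2 (9.34% of all genes passed), and their median log2 difference was 1.15. Dntt, the DNA polymerase of early lymphocytes, stood at 0.03, 0.02 and 11.6 FPKM in Control and at 75.9, 140 and 156 in Abx (log2 difference 5.66, SE 0.997, limma adjusted p 0.0911). The receptor genes Trbc2 and Trbc1 differed by 0.92 (SE 0.15) and 1.34 (SE 0.26), each with a limma adjusted p of 0.0911, and Cd3g by 0.49 (SE 0.25, limma adjusted p 0.535). Cd3d was at 8.32, 6.10 and 4.46 FPKM in Control and 63.8, 37.2 and 108 in Abx (log2 difference 3.18, SE 0.51, limma adjusted p 0.0911). Cd8b1 was at 4.62, 10.2 and 0 FPKM in Control and 27.1, 52.2 and 36.4 in Abx, and Ptcra, the pre-T cell receptor chain, at 6.13, 0 and 0 in Control and 63.1, 44.6 and 15.2 in Abx. Every Abx library was above every Control library for these 3 genes and for Rag1, which was at 0.86 FPKM or less in Control and at 0.99 to 12.3 in Abx. This held for 7 of the 10 tested T cell markers and for 8.49% of all genes tested. Trac, the lower one, was at 11.7, 3.01 and 10.8 FPKM in Control and 21.2, 14.05 and 0.22 in Abx. Cd3e and Lef1 were higher on average, with overlapping groups. Rag2 was listed at 0 in every library, Cd8a did not exceed 3.25 FPKM and Cd4 was above 0 in Abx 2 alone.

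For B cells, the lineage with which Ly6D is most associated, the summed level of 18 markers was 570 to 757 FPKM in Control and 1335 to 1610 in Abx. Of 10 tested, 8 were higher and 2 lower in Abx, with a median of 1.19. At the unadjusted p with a fold over 2, 3 that were higher and 1 that was lower passed, where 9.34% of all genes did. The class II gene H2-Ab1 was the one gene called, at 21.5, 21.8 and 16.5 FPKM in Control and 157, 160 and 119 in Abx (log2 difference 2.80, SE 0.29, limma adjusted p 0.0448). No gene at all was called with no filter, with a pseudocount of 0.1 or 0.01, with the replicate number as a block, or with any library other than Abx 2 left out, so this call was lost there. Class II genes are also expressed by other antigen-presenting cells and by ILC2s. Ighm was at 141, 109 and 159 FPKM in Control and at 423, 358 and 429 in Abx (log2 difference 1.57, SE 0.22, limma adjusted p 0.0911), Cd74 differed by 1.21 (SE 0.26, limma adjusted p 0.102) and Igkc by 0.82 (SE 0.26, limma adjusted p 0.256). The 2 lower ones did not overlap between the groups, where 8.73% of all genes were lower without overlap. Cd22 was at 3.79, 11.0 and 2.74 FPKM in Control and 0.19, 0.06 and 1.33 in Abx (log2 difference -2.06, SE 0.70, limma adjusted p 0.288). Cd79b was at 69.5, 117 and 69.8 FPKM in Control and 56.4, 31.0 and 57.4 in Abx (log2 difference -0.82, SE 0.37, limma adjusted p 0.472). Of the 8 higher ones 5 did not overlap either, where 8.49% of all genes were higher without overlap. Of the defining B cell genes, Ighd, Cr2 and Igll1 were listed at 0 in all libraries, and Pax5 was above 1 FPKM in Abx 1 alone (2.33). The sort was set to remove B cells by B220 and T cells by CD3e, CD5 and TCR-β, and the part of such cells in the level of Ly6d was not tested.

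Over the 15 ILC2 markers the summed level was 3044 to 3130 FPKM in Control and 1942 to 2258 in Abx. Of 14 tested, 5 were higher and 9 lower in Abx, with a median log2 difference of -0.53. Limma called 0, and 3 that were lower passed at the unadjusted p with a fold over 2, where 9.34% of all genes did. Areg, which encodes amphiregulin, was at 657, 783 and 780.3 FPKM in Control and at 393, 278 and 197 in Abx (log2 difference -1.40, SE 0.27, limma adjusted p 0.0911). It was lower in every Abx library as Ly6a was, and as were 8.73% of all genes tested. Icos and Calca passed with it at the unadjusted p. Icos was at 240.5, 289 and 287 FPKM in Control and 82.4, 115 and 120 in Abx (log2 difference -1.37, SE 0.23, limma adjusted p 0.0911). Calca was at 235, 158 and 205 FPKM in Control and 16.6, 119 and 57.3 in Abx (log2 difference -1.99, SE 0.64, limma adjusted p 0.253). Without overlap between the groups, 4 of the tested markers were lower and 1 was higher, against 8.73% and 8.49% of all genes. Cxcr6, Klrg1 and Arg1 differed by -0.15 (SE 0.26, limma adjusted p 0.884), 0.03 (SE 0.39, limma adjusted p 0.986) and -0.54 (SE 0.19, limma adjusted p 0.330). The part of this difference in the level of Ly6a was not tested.

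Markers of 3 further kinds of cell were read in the same way. Plasmacytoid dendritic cells, whose progenitors carry Ly6D, have 8 markers in the list, and their summed level was 10.9 to 17.0 FPKM in Control and 5.01 to 21.3 in Abx, with Siglech at no more than 0.03 FPKM and Klk1 and Cox6a2 at 0. Of 3 tested, 2 were higher and 1 lower in Abx. At either threshold 0 passed in limma, where 9.34% of all genes passed the looser one. Of 10 endothelial markers, whose cells express Ly6a and Ly6c1, 9 stayed under 1 FPKM in all libraries, and the summed level of 5.16 to 10.8 FPKM in Control and 6.17 to 21.2 in Abx came almost wholly from Pecam1, which was the one tested and passed at neither. The epithelial markers summed to 24.6 to 1158 FPKM in Control and 55.7 to 142 in Abx, with the highest value from Scgb1a1 at 1109 FPKM in Control 1 and Cdh1, Krt5, Sftpb and Krt15 at 0, and of 3 tested 1 was higher and 2 were lower. Limma called 0 of these. The higher one, Sftpc, was at 36.8, 11.5 and 11.3 FPKM in Control and 52.3, 48.3 and 56.1 in Abx. It passed at the unadjusted p with a fold over 2, where 9.34% of all genes did.

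**Figure D4:**
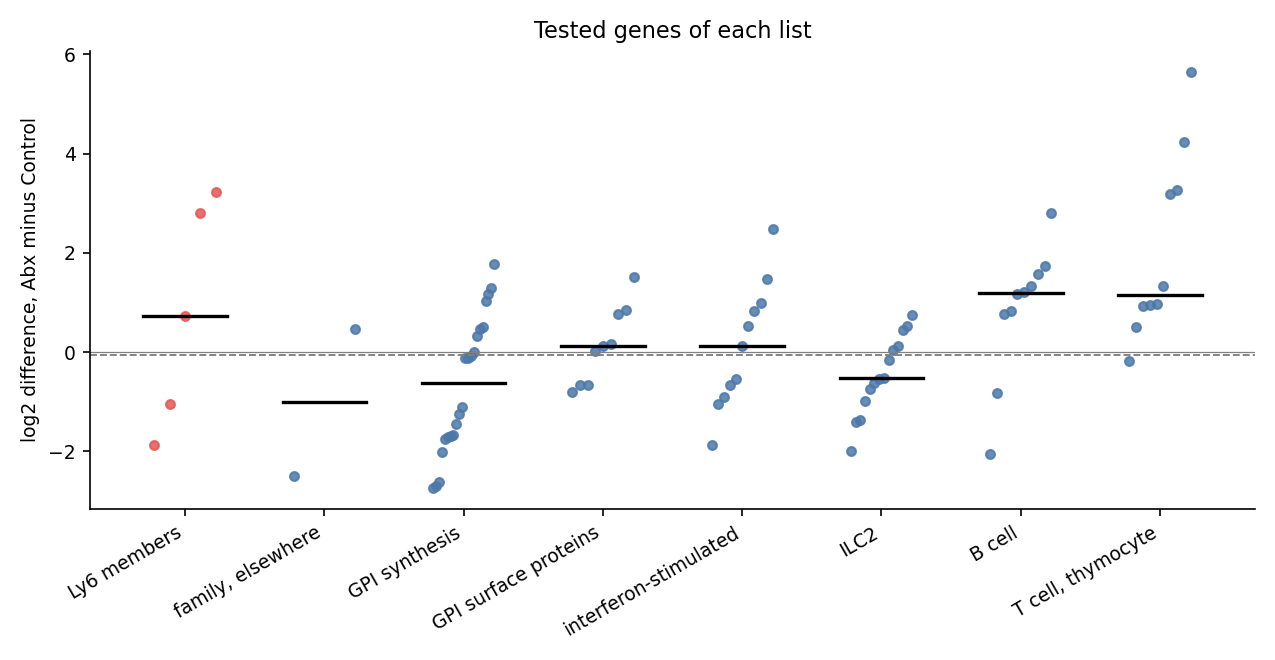
Difference between the groups on the log2(FPKM + 1) scale, Abx minus Control (vertical axis), for each tested gene of 8 lists (horizontal axis), with the median of each list as a black bar and the median of all genes tested, -0.06, as a dashed line. The 5 tested Ly6 members (red), which include Ly6d, run from -1.87 to 3.23, the interferon-stimulated genes lie about 0.11, and the B cell and T cell lists have medians of 1.19 and 1.15.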

How the data were processed

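The authors sorted 1000 cells per library, made libraries with the Smart-seq v4 kit, trimmed with Cutadapt, mapped with HISAT2 and assembled with StringTie, and deposited FPKM per gene, 1 value for each of 55394 genes in 6 libraries, with no scaling between libraries stated. Their methods name a human annotation of Ensembl release 96, whereas the identifiers are mouse, and 55134 of them are in GENCODE M21. The submitters' processing notes also list Bowtie 0.12.2 with mm8 and mm9. Coordinates are from GENCODE M21 (GRCm38). Low values gave no whole-read step (24.5% to 27.0% within 0.1 of a multiple of the best one, 20.0% by chance), so no counts were recovered and the authors' DESeq2 step could not be repeated.

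Genes that reached 1 FPKM in 3 or more libraries were fitted as log2(FPKM + 1) in limma 3.58.1 (R 4.3.3, eBayes with trend), Abx against Control without pairing, two-sided, with Benjamini-Hochberg adjustment over all 8718 genes. The script was tested on simulated data with spreads taken from the less variable genes. That test does not cover genes as variable as Ly6k and Ly6c1. Fold changes on this scale understate the change of low genes. Members under the filter had an exact permutation test. Tables used Python 3.11.15, pandas 2.3.3 and numpy 2.4.6. Named genes are the 8 members, family genes that reach 1 FPKM in any library, tested neighbours within 1 Mb, up to 4 genes of highest mean level and every gene called in each list, and the 5 genes most correlated with Ly6d and with Ly6a. Others, such as Cd3d, Cd8b1, Ptcra, Rag1, Rag2, Trac, Cd3e, Lef1, Cd22, Cd79b, Pax5, Icos, Calca, Pigb, Pigk, Pigl, Pigu, Lynx1 and Ly6g6g, were named after their values were seen. The members and lists were chosen with earlier results of these data known. Alternatives were pseudocounts of 0.1 and 0.01, quantile normalization, median centring, no filter, a mean of at least 5 FPKM, no trend, robust variance, no fold limit, the unadjusted p, each library left out and the replicate number as a block.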

Additional observations from a re-analysis of the deposited data

How the results depend on the processing

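The 5 genes called in all fell to 0 with no filter, with a pseudocount of 0.1 or of 0.01 and with the replicate number as a block, and to between 0 and 2 with a library left out (2 without Abx 2). They rose to 59 with no trend and to 814 at the unadjusted p. Members called other than Ly6d stayed at 0 except for 1 at the unadjusted p (Ly6a), and were 0 with each library left out. Neighbours called were 1 with no trend (Arc), 2 at the unadjusted p (Ly6a and Arc) and 0 with each library left out. The cause was not tested. The log2 difference kept its direction under every alternative run for Ly6d (2.95 to 3.41), Ly6a (-2.44 to -1.54, adjusted p 0.0839 to 0.626), Ly6e (0.53 to 0.89, adjusted p 0.220 to 0.635), Ly6k (1.70 to 5.07) and Ly6c1 (-2.45 to -0.12). The median of the other members ranged from -0.57 to 0.43, the latter with no filter, where Ly6c2 and Ly6i also enter. The replicate numbers did not pair the libraries (r of same-numbered deviations -0.02, -0.03 and 0.01), and the block changed no call of a member other than Ly6d. Depth is unknown, so a level of 0 has no limit.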
